A study of Sus scrofa with 4 samples.

Results

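Fragments of transfer RNA were followed through the reads that match tRNA entries of Rfam, a database of structural RNA families, in small RNA libraries of pig vascular stem cells. An entry counted as tRNA where its deposited name lists tRNA as the Rfam family. Over the 4 libraries, 19579 of 43236 listed features met this rule, and 8360 of them had at least 1 read. Each name gives a sequence record and the first and last base of the tRNA in it. It gives neither the species nor the amino acid, and Rfam draws its entries from many species, so an entry stands for the reads that match it and not for a known pig gene.

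The cells were primary cultures of Sus scrofa at passage 1, taken from the longissimus dorsi, a long muscle of the back (IVSC), or from fat under the skin (SVSC). Each culture was sequenced undifferentiated (IVSC, SVSC) and after the adipogenic cocktail MDI (IVSC MDI, SVSC MDI). The cocktail combined insulin at 5 mg/l with the glucocorticoid dexamethasone at 0.25 µM and IBMX, which blocks phosphodiesterases, at 0.5 mM. The latter pair was taken away after 3 days, growth medium came back on day 6, and cells were kept for 3 or 4 more days, with no statement of which library had which. All 4 groups were kept in 20% fetal bovine serum. Each group is 1 library, so no spread between animals or cultures can be given, and the sources used here do not say whether the cultures share an animal. The series set out to compare small RNAs of adipogenesis between both cell types.

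tRNAs carry amino acids to the ribosome, and most fold into a cloverleaf of stems and loops. Cells also cut them: angiogenin and related ribonucleases cleave the anticodon loop into tiRNAs (tRNA-derived stress-induced RNAs), chiefly under stress, and other cuts leave shorter fragments from either end. Some of these fragments are known to dampen translation or to associate with Argonaute proteins, and plain breakdown of tRNA gives fragments too. The libraries were made from fragments of 16 to 35 nt, which takes in shorter pieces and tiRNAs of up to 35 nt. Longer tiRNAs and whole tRNA are left out. Where on the tRNA a read lies is not in the deposited counts, so tiRNAs and other fragments were not separated here.

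The 4 files hold 21590587 (IVSC), 20739428 (IVSC MDI), 25725723 (SVSC) and 5166494 (SVSC MDI) reads on all features. All levels are reads per 1000000 of these reads (RPM), and a count of 0 allows up to 3 reads, or 0.139, 0.145, 0.117 and 0.581 RPM. The SVSC MDI library is the shallowest and also stands apart in makeup. Pig miRNA hairpins took 55.01% of its reads, against 70.2% to 77.0% in the other 3, and Ensembl non-coding RNAs took 38.5%, against 14.0% to 19.3%. Among miRNA markers of cell types, those of mesenchymal and perivascular cells summed to between 182717 and 286913 RPM. The 5 skeletal muscle miRNAs summed to 3852 RPM in IVSC and 812 in IVSC MDI, against 1292 and 442 in the fat culture. miR-206, the most muscle-restricted of them, fell from 2991 RPM in IVSC to 99.7 in IVSC MDI. It was at 1.94 in SVSC and 0.774 in SVSC MDI. The other muscle miRNAs did not all follow it, given here in the order IVSC, IVSC MDI, SVSC and SVSC MDI. miR-1 stood at 762, 630, 1267 and 329 RPM, and miR-133a at 48.0, 61.0, 15.1 and 98.9. miR-133b stood at 42.2, 11.8, 0.933 and 8.13 RPM, and miR-499 at 7.83, 9.50, 6.41 and 5.23. The endothelial miR-126 lay between 31.7 and 82.3 RPM, the blood miR-142 between 3.77 and 18.5, and of 4 epithelial miRNAs 3 were not listed and the other stayed below 1.75 RPM. The part of these cell types in the tRNA results was not tested.

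tRNA entries drew the most reads in undifferentiated fat cells and the fewest in the same cells after MDI. The family held 152805 reads in IVSC and 110912 in IVSC MDI, then 210688 in SVSC and 20477 in SVSC MDI. These are 7077, 5348, 8190 and 3963 RPM, or 0.708%, 0.535%, 0.819% and 0.396% of all reads. With MDI, the family sum of the fat culture fell to 0.484 of its former level (exact 95% Clopper-Pearson interval 0.477 to 0.491), a 2.07-fold fall. In the muscle culture the ratio was 0.756 (0.750 to 0.761), which is short of the 2-fold change that is called a rise or a fall here, together with an interval that excludes 1. Between undifferentiated cultures, SVSC stood at 1.16 times IVSC (1.15 to 1.16), and after MDI SVSC MDI stood at 0.741 of IVSC MDI (0.730 to 0.752). Both of these are under 2-fold.

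Intervals cover counting error only, and reads amplified by PCR without molecular tags are not independent molecules. They are also too narrow for sums if one read counts on several tRNA entries of like sequence, as was taken to be so here. Uniquely matching reads count once each. Their column is labelled as unique exact matches, so reads with a mismatch may be missing from it. They gave 27309, 18041, 45058 and 2964 reads in the same order, or 17.9%, 16.3%, 21.4% and 14.5% of the summed reads. Their levels were 1265 RPM in IVSC and 870 in IVSC MDI, then 1751 in SVSC and 574 in SVSC MDI. The libraries keep the same order on this measure. With MDI the unique reads fell to 0.328 in the fat culture and stood at 0.688 in the muscle culture. In bulk libraries, fewer cells of a type and less RNA per cell cannot be told apart.

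The log2 ratio of the family with MDI differed by −0.64 between the cultures (SVSC minus IVSC, counting interval −0.67 to −0.62), and by −1.07 on unique reads. This difference rests on the scaling. Scaled to hairpin reads, the family stood per 1000000 of them at 10077 in IVSC and 6943 in IVSC MDI, then 10868 in SVSC and 7205 in SVSC MDI. On that scale the MDI ratio was 0.689 in the muscle culture and 0.663 in the fat culture, neither past 2-fold, and the difference shrank to −0.06. SVSC MDI then stood at 1.04 times IVSC MDI, which turns the direction. The fall of the family sum in the fat culture also missed 2-fold with DESeq2 size factors (0.533), without the single most abundant entry (0.504) and with entries of like counts taken once (0.513). On unique reads it was past 2-fold.

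**Figure D1:**
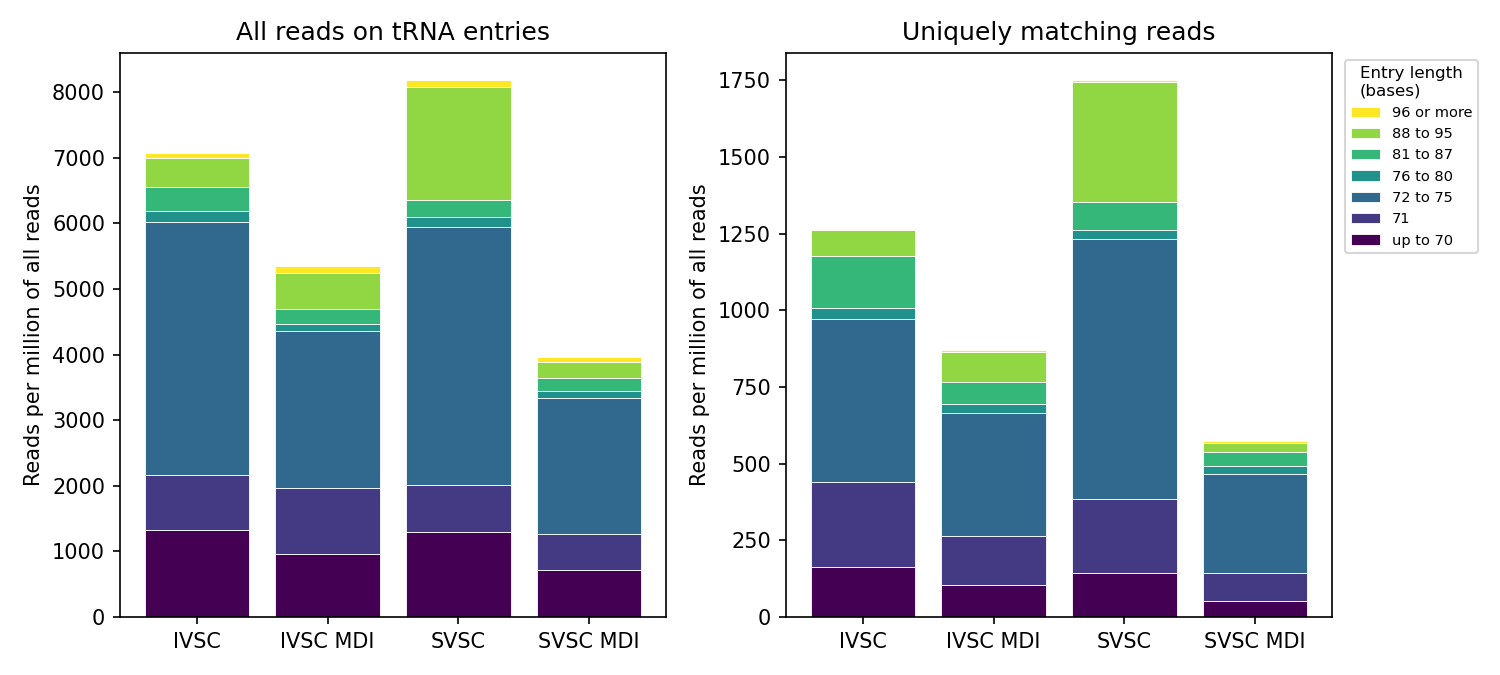
Reads per 1000000 of all reads (RPM) on Rfam tRNA entries in the 4 libraries, for all reads (left) and uniquely matching reads (right), stacked by the length of the entry in bases; 1 library per group, so there are no error bars. SVSC is the highest library on both measures (8190 and 1751 RPM) and SVSC MDI the lowest (3963 and 574 RPM).

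Few of the listed entries carried the reads. Of all tRNA entries, 11219 were at 0 in every file that lists them, 1850 had a read in all 4 libraries, and 1685 had a uniquely matching read anywhere. Only 287 reached 10 RPM in any library, 66 reached it in all 4, and 7 reached 100 RPM in any. The single highest entry held 2.04% of the tRNA reads in IVSC and 1.68% in IVSC MDI, then 4.41% in SVSC and 1.82% in SVSC MDI. The top 10 held between 10.2% and 17.0%, and the top 100 between 42.2% and 49.6%. The reads are thus spread over many entries in each library, with the strongest lead of 1 entry in SVSC.

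Many entries repeat one another's counts. The 8360 entries with a read show 2501 distinct sets of 4 counts. The 287 entries at 10 RPM or more were grouped by profile, within 0.5 on the log2 scale in every library after adding 0.5 RPM. This gave 68 groups, of which 16 held 5 or more entries and together 194 entries, while 26 entries stood alone. Counts of entries therefore say how many database sequences match, not how many tRNAs. Of the 287, 31 had more than 50% uniquely matching reads.

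Entry length separated the family more sharply than the family sum. Eukaryotic tRNAs have a short variable arm in most families and a long one in those for serine and leucine, and some tRNA genes hold an intron, so length differs between families. As a guide, the RefSeq annotation of the pig (Sscrofa11.1) holds 510 nuclear tRNA genes. Of these, 398 span 72 to 75 bases and 24 span 71, 23 of the latter for glycine. A span of 81 to 87 bases is held by 61 genes, 30 for serine, 28 for leucine and 3 for arginine. A span of 88 to 95 is held by 21, of which 14 are for tyrosine, 5 for isoleucine and 2 for arginine. Of the 22 mitochondrial tRNA genes, 18 span 70 bases or fewer, and no nuclear one does. Which tRNA an Rfam entry is was not determined, so these lengths do not name the entries.

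The 9497 entries of 72 to 75 bases held the largest share, 54.7% of tRNA reads in IVSC and 44.6% in IVSC MDI, then 48.1% in SVSC and 52.5% in SVSC MDI. They stood at 3869, 2388, 3936 and 2082 RPM. SVSC stood at 1.02 times IVSC, and both MDI libraries were lower, at 0.617 in the muscle culture (0.610 to 0.624) and 0.529 in the fat culture (0.519 to 0.540). Neither ratio reached 2-fold, while the unique reads of these entries fell 2.63-fold in the fat culture, from 847 to 322 RPM. Unlike the sum, the unique reads stood at 1.60 times the IVSC level in SVSC (1.56 to 1.64), 847 against 530 RPM. Entries of up to 70 bases stood at 1328, 961, 1294 and 709 RPM, with MDI ratios of 0.724 and 0.548. Here too the undifferentiated cultures lay close together in sum, and both were higher than their MDI library. Within the class, entries of 70 bases went the other way in the muscle culture, from 176 RPM in IVSC to 277 in IVSC MDI. Unique reads of the class fell 2.67-fold with MDI in the fat culture.

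Entries of 88 to 95 bases marked the undifferentiated fat culture. These 594 entries held 9427 reads in IVSC and 11473 in IVSC MDI, then 44454 in SVSC and 1321 in SVSC MDI. Their levels were 437, 553, 1728 and 256 RPM, or 6.17%, 10.3%, 21.1% and 6.45% of tRNA reads. SVSC stands far above the other 3 libraries and SVSC MDI is the lowest. The class was 3.96-fold higher in SVSC than in IVSC (3.87 to 4.05) and fell 6.76-fold with MDI in the fat culture (6.398 to 7.14). With MDI in the muscle culture its ratio was 1.27 (1.23 to 1.30). The log2 MDI ratio thus differed by −3.10 between the cultures (SVSC minus IVSC, −3.19 to −3.01).

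On uniquely matching reads the same class held 1782 reads in IVSC, 1991 in IVSC MDI and 10096 in SVSC. It stood at 82.5 RPM in IVSC, 392 in SVSC and 27.7 in SVSC MDI, 4.75-fold higher in SVSC than in IVSC and with a 14.2-fold fall with MDI in the fat culture. Most of these unique reads lie on 1 entry, AANN01294671.1/1046-1134, which holds 1467 of them in IVSC, 9272 in SVSC and 106 in SVSC MDI. Without it the unique reads of the class stood at 14.6 RPM in IVSC and 8.78 in IVSC MDI, then 32.0 in SVSC and 7.16 in SVSC MDI. They were then 2.20-fold higher in SVSC than in IVSC (1.93 to 2.51) and fell 4.47-fold with MDI in the fat culture (3.22 to 6.398), and their MDI ratio in the muscle culture was 0.601 in place of 1.16. Scaling to hairpin reads, TMM scaling and DESeq2 size factors kept the 2-fold calls of SVSC over IVSC and of SVSC MDI over SVSC for all reads of the class. After MDI, the class was 2.16-fold lower in SVSC MDI than in IVSC MDI. That call was lost per hairpin read (0.647) and without the class's top entry (0.504).

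The class carried 34.8% of the family's loss with MDI in the fat culture, 1472 of 4226 RPM. Without it the family stood at 6641 RPM in IVSC and 4795 in IVSC MDI, then 6462 in SVSC and 3708 in SVSC MDI. On this sum, undifferentiated SVSC then no longer exceeded IVSC (ratio 0.973), and the MDI ratio of the fat culture was 0.574, short of 2-fold. Outside the class, unique reads of entries up to 70, of 71 and of 72 to 75 bases each fell past 2-fold there. Those of the other lengths outside it did not. The excess of SVSC over IVSC in the family sum, 1112 RPM, was smaller than the excess within the class, 1291 RPM. Both sums can count a shared read on several entries. On unique reads the family stood at 1265 RPM in IVSC and 1751 in SVSC, and the class at 82.5 and 392 RPM. The excess within the class was then the smaller one, so unique reads outside the class were also higher in SVSC.

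**Figure D2:**
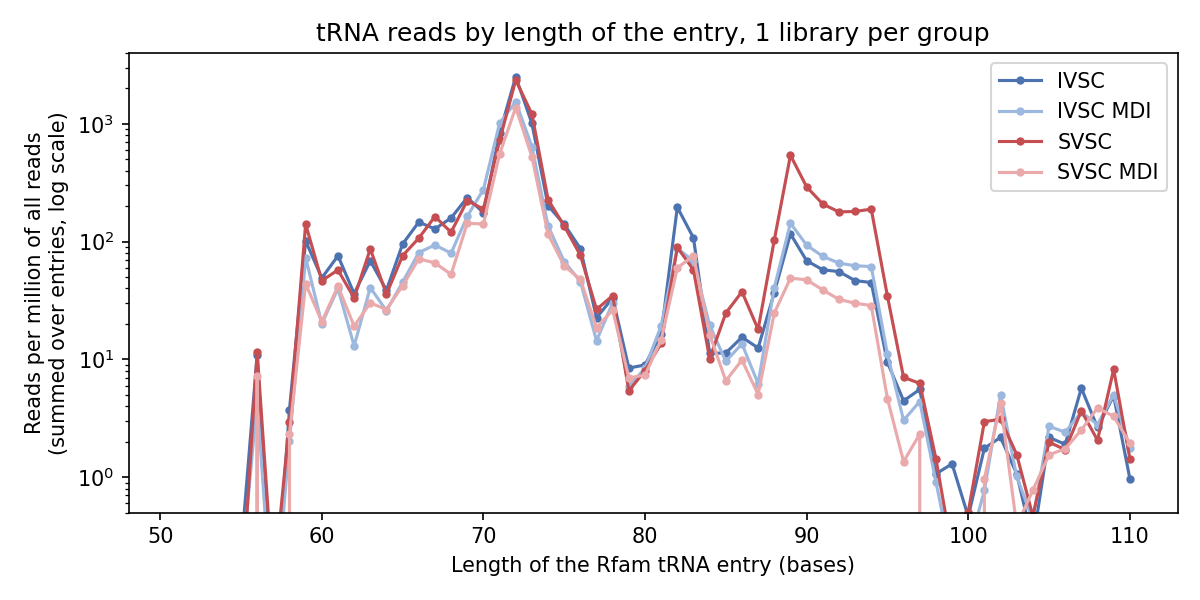
Reads per 1000000 of all reads (RPM) summed over the tRNA entries of each length in bases (log scale; points under 0.5 are not drawn), 1 line per library. The lines run close together around 72 bases and part between 88 and 95 bases, where SVSC is the highest and SVSC MDI the lowest. The same order of these libraries is seen at 85, 86 and 87 bases, at lower levels.

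Entries of 71 bases went another way. They stood at 831 RPM in IVSC and 1012 in IVSC MDI, then 723 in SVSC and 553 in SVSC MDI. Their share of tRNA reads was higher after MDI in both cultures, 18.9% against 11.7% in muscle cells and 14.0% against 8.83% in fat cells. Their level had an MDI ratio of 1.22 in the muscle culture (1.19 to 1.24) and 0.765 in the fat culture (0.735 to 0.796), and per hairpin read the latter became 1.05. Unique reads on these entries were lower after MDI in both, from 277 to 158 RPM and from 243 to 91.7 RPM, and only the latter is a fall past 2-fold. In the muscle culture, the ratios of all reads and of unique reads of this length thus lay on opposite sides of 1.

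Entries of 81 to 87 bases were highest in undifferentiated muscle cells. They stood at 370 RPM in IVSC and 224 in IVSC MDI, then 251 in SVSC and 188 in SVSC MDI. Their unique reads stood at 171, 70.6, 89.7 and 47.6 RPM and fell 2.43-fold with MDI in the muscle culture (2.28 to 2.58), with a ratio of 0.531 in the fat culture. That fall came with 1 entry, ABAV01028946.1/728-809, which holds 2512 of the 3698 unique reads in IVSC and 509 of the 1464 in IVSC MDI. Without it the unique reads of the class stood at 54.9 and 46.05 RPM in the muscle culture, a ratio of 0.838 (0.769 to 0.914). The 428 entries of 76 to 80 bases (161, 105, 152 and 107 RPM) and the 661 of 96 or more (81.8, 105, 107 and 69.1 RPM) were minor, and no ratio of theirs reached 2-fold.

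Single entries were compared where they reached 10 RPM in at least 1 of both libraries. An entry that passes this rule through 1 library alone is favoured to be lower in the other. Counts of calls therefore follow in part from the rule. With MDI in the muscle culture, 196 were compared, of which 69 (35.2%) fell and 35 (17.9%) rose. Over all features of the files, tRNA included, 20.0% fell and 30.0% rose, 50.1% together. The median log2 ratio of the tRNA entries was −0.74, against 0.10 over all features compared. Among the features that are not tRNA, 14.2% fell and 34.7% rose. Lower calls were thus more frequent among tRNA entries than in the rest of the files, and higher calls less frequent. Of the 35 rises, 31 were among the 44 entries of 70 or 71 bases, while 44 of the 69 falls were among the 107 entries of 72 to 75 bases. Only 21 entries of 70 or 71 bases were compared between undifferentiated cultures, so the others passed the 10 RPM rule through an MDI library.

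With MDI in the fat culture, 243 entries were compared, of which 155 (63.8%) fell and 2 rose. Over all features 45.3% fell and 15.1% rose (60.4% together), and the median log2 ratio was −1.53 for tRNA entries and −0.84 over all features. All 78 compared entries of 88 to 95 bases fell. Only 4 of this length were compared in each comparison without SVSC, so most passed the 10 RPM rule through SVSC alone. The rule thus favours falls from SVSC for them, and their number is no added support. Without them 77 of the other 165 tRNA entries fell, or 46.7%. Among the features that are not tRNA, 35.9% fell. The share of falls among tRNA entries was thus lower without the entries of 88 to 95 bases, most of which have near-equal counts, and still above that of the other features. Among the 22 compared entries with more than 50% unique reads, 16 fell and 2 rose. Per hairpin read, 137 of 315 compared entries fell and 33 rose.

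Of 152 entries compared in both cultures, 20 fell in both, 1 rose in both, and 37 were called in neither. A further 50 fell in the fat culture alone, 36 fell in the muscle culture alone and 8 rose in the muscle culture alone. None was called in opposite directions. The same overlap was not counted over all features, so these counts do not set tRNA entries apart from the rest of the files. A call in 1 culture alone does not show a difference between them, and with 1 library each this difference was not tested.

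**Figure D3:**
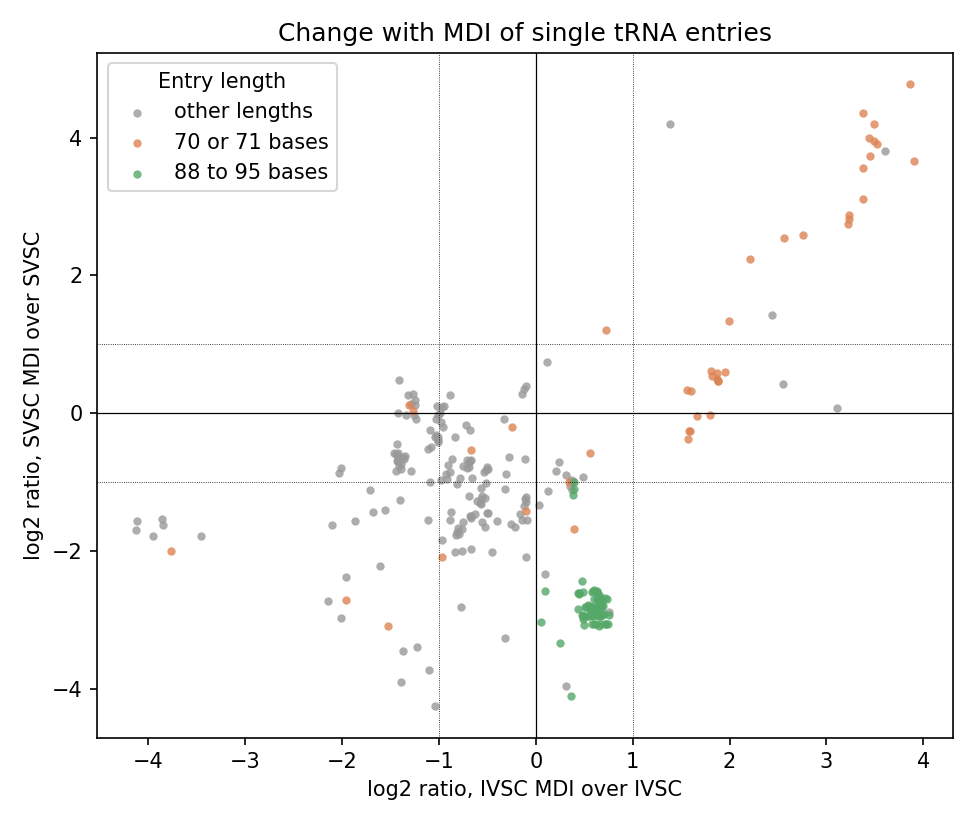
log2 ratio with MDI of the 286 tRNA entries at 10 RPM or more in any library and with reads in all 4, muscle culture across and fat culture up, coloured by entry length; dotted lines mark 2-fold. All 78 entries of 88 to 95 bases lie right of 0 and below 0, and 27 of the 44 entries of 70 or 71 bases lie above 0 in both cultures. Most entries of 88 to 95 bases reached 10 RPM in SVSC alone, which favours a place below 0. Of the entries of 70 or 71 bases, only 21 reached 10 RPM in an undifferentiated culture. The others passed through an MDI library, which favours a place right of 0.

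Between undifferentiated cultures, 258 entries were compared, of which 84 (32.6%) were higher in SVSC and 24 (9.30%) lower, against 21.9% and 10.5% over all features (32.4% together) and 15.9% and 11.2% over those that are not tRNA. Of the 84, 75 were entries of 88 to 95 bases. Most entries of this length reached 10 RPM in SVSC alone, so the rule favours this direction for them. Of the other 180 entries, 9 were higher and 24 lower. Per hairpin read the split over all compared entries was 90 higher and 44 lower. Between the MDI libraries, 138 were compared, and 1 was higher and 37 (26.8%) lower in SVSC MDI, against 6.14% and 26.9% over all features (33.1% together), so the share of lower calls was that of the files. Of those 37, 25 were among the 41 entries of 70 or 71 bases. Only 20 entries of these lengths reached 10 RPM in either fat library. The others passed the rule through IVSC MDI, which favours lower calls in SVSC MDI for them. Per hairpin read the split of this comparison turned to 19 higher and 17 lower.

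The entry with the highest mean level was AANN01294671.1/1046-1134, of 89 bases. It held 1470 reads in IVSC and 1812 in IVSC MDI, then 9287 in SVSC and 109 in SVSC MDI, nearly all uniquely matching (1467, 1809, 9272 and 106), or 68.1, 87.4, 361 and 21.1 RPM. SVSC is the highest and SVSC MDI the lowest, as for its length class. It was 5.30-fold higher in SVSC than in IVSC (5.02 to 5.61) and fell 17.1-fold with MDI in the fat culture (14.2 to 20.9), while its ratio in the muscle culture was 1.28 (1.20 to 1.38). After MDI it was 4.14-fold lower in the fat culture than in the muscle culture (3.41 to 5.07). Since nearly all of its reads match no other entry, this pattern does not come from reads shared with the rest of its class.

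Of the other entries of 88 to 95 bases, most fell into a pair of groups with few unique reads. A group of 45 entries, 43 of them of this length, had median counts of 76 reads in IVSC and 108 in IVSC MDI, then 420 in SVSC and 12 in SVSC MDI. A group of 33 entries, 31 of this length, had median counts of 71, 108, 417 and 11 and 1 uniquely matching read among 19992. Both groups show the order of libraries seen for AANN01294671.1/1046-1134. One member of the first group, CABD01091726.1/4727-4814 of 88 bases, had reads of its own: 78, 89, 501 and 10 in all and 74, 87, 494 and 9 unique. It was 5.39-fold higher in SVSC than in IVSC (4.24 to 6.93) and 10.1-fold lower in SVSC MDI than in SVSC (5.43 to 21.1).

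Among the 10 entries of highest mean level, 9 fell with MDI in the fat culture and 2 in the muscle culture. AAFR03050588.1/29585-29657, of 73 bases, held 2252, 1858, 5782 and 371 reads, or 104, 89.6, 225 and 71.8 RPM. BX936436.13/22209-22281, also of 73 bases and matched almost only by unique reads, held 109, 71.5, 175 and 72.2 RPM. Both were highest in SVSC, and both fell with MDI in the fat culture, 3.13-fold (2.82 to 3.49) and 2.43-fold (2.19 to 2.71). The second of these falls was lost per hairpin read (0.564).

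AALT01600958.1/398-469, of 72 bases, stood at 77.6 RPM in IVSC and 62.1 in IVSC MDI, then 190 in SVSC and 19.7 in SVSC MDI. It resembled the long entries: 2.45-fold higher in SVSC than in IVSC (2.32 to 2.59), a 9.63-fold fall with MDI in the fat culture (7.92 to 11.8), and a ratio of 0.801 in the muscle culture. AAVX01558404.1/300-358, of 59 bases, stood at 82.8, 60.5, 120 and 29.8 RPM and fell 4.04-fold with MDI in the fat culture.

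A pair of the 10 fell with MDI in both cultures and were highest in undifferentiated muscle cells. ABAV01028946.1/728-809, of 82 bases, held 3121, 699, 1313 and 86 reads, or 144.6, 33.7, 51.0 and 16.6 RPM, and fell 4.29-fold (3.95 to 4.66) and 3.07-fold (2.46 to 3.86). It was 2.83-fold lower in SVSC than in IVSC. AADB02275343.1/242-312, of 71 bases, held 2367, 583, 1438 and 44 reads, or 110, 28.1, 55.9 and 8.52 RPM, and fell 3.90-fold (3.56 to 4.28) and 6.56-fold (4.86 to 9.07). Most reads of both were uniquely matching (2512 of 3121 and 2282 of 2367 in IVSC).

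ABVD01455216.1/40-110, of 71 bases, stood at 89.1, 45.4, 83.4 and 19.5 RPM and fell 4.27-fold with MDI in the fat culture, with a ratio of 0.510 in the muscle culture. BX276122.23/61268-61336, of 69 bases, stood at 50.7, 26.0, 67.2 and 18.8 RPM and fell 3.58-fold in the fat culture. CAAK05027100.1/1660-1728, also of 69 bases, did not follow the others: it stood at 62.8, 56.7, 47.6 and 57.9 RPM, with MDI ratios of 0.903 and 1.22.

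**Figure D4:**
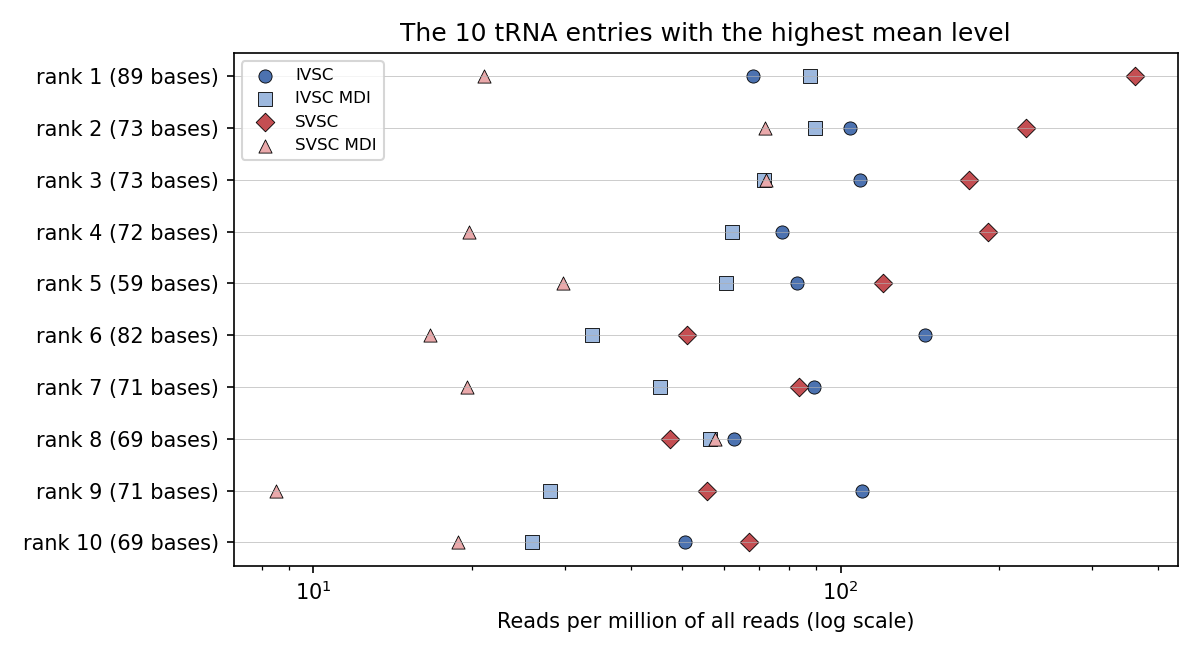
RPM (log scale) of the 10 tRNA entries with the highest mean level, ranked from the top, in the 4 libraries; 1 library per group. The first entry is highest in SVSC (361 RPM), the sixth and ninth are highest in IVSC (144.6 and 110 RPM), and SVSC MDI is the lowest library in 8 of the 10.

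The largest rises with MDI in the muscle culture were on entries of 69 to 71 bases with few or no unique reads. CAAE01014504.1/140088-140157 held 18 reads in IVSC and 258 in IVSC MDI, then 13 in SVSC and 33 in SVSC MDI. CR762475.29/90198-90268 held 18, 251, 6 and 33, and CR847906.12/15340-15408 held 28, 327, 15 and 42. Both MDI libraries are above both undifferentiated ones for all 3. The rises in the muscle culture were 14.9-fold (9.25 to 25.6), 14.5-fold (8.999 to 24.9) and 12.2-fold (8.26 to 18.6). The first and the last of them belong to a group of 13 entries, 12 of them of 70 or 71 bases, with median levels of 1.25, 13.0, 0.505 and 6.39 RPM. In the fat culture these entries stayed under 10 RPM in both libraries and were not compared for calls, and their ratios there were 12.6 (6.48 to 26.2), 27.4 (11.3 to 79.96) and 13.9 (7.57 to 27.1).

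The entry that rose in both cultures, ABJB010991214.1/254-324 of 71 bases, held 74, 330, 55 and 52 reads, of which 71, 325, 49 and 51 were unique. Its levels were 3.43, 15.9, 2.14 and 10.1 RPM, so both MDI libraries lay above both others. It rose 4.64-fold in the muscle culture (3.60 to 6.06) and 4.71-fold in the fat culture (3.16 to 7.01). AANG01128475.1/338-410, of 73 bases, held 6, 15, 18 and 66 reads and rose 18.3-fold with MDI in the fat culture (10.7 to 32.7), the other rise there. It was also the 1 entry higher in SVSC MDI than in IVSC MDI, 17.7-fold (9.97 to 33.3), and 65 of its 66 reads there were unique.

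An entry of 70 bases with no unique read, ABAV01023929.1/7068-7137, stood at 13.9, 41.4, 14.3 and 11.0 RPM, a 2.97-fold rise with MDI in the muscle culture and a ratio of 0.769 in the fat culture. After MDI it was 3.75-fold lower in the fat culture (2.87 to 4.99). A group of 5 entries of 70 or 71 bases had median levels of 5.37, 19.7, 5.75 and 8.13 RPM, so both MDI libraries lay above both others, and IVSC MDI was the highest. CU457794.12/30933-31003, of 71 bases, stood at 10.0, 16.5, 3.19 and 7.36 RPM. It was 3.14-fold lower in SVSC than in IVSC (2.42 to 4.10). Its MDI ratio was 1.65 in the muscle culture (1.39 to 1.97) and 2.31 in the fat culture (1.53 to 3.43), where it stayed under 10 RPM and was not compared for calls.

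The largest falls in the muscle culture were on short entries. AASC02055495.1/23666-23733, of 68 bases, held 831 reads in IVSC, 830 of them unique, and 0 in the other 3 libraries. With 0 set to the floor of 3 reads, it was 266-fold lower in IVSC MDI (interval from 216) and 330-fold lower in SVSC (from 268). ABJB010942614.1/152-217 (66 bases) held 418, 23, 369 and 23 reads and AASR01002913.1/2-61 (60 bases) held 415, 23, 370 and 25, none of them unique. Both were high in the undifferentiated cultures and low after MDI, with falls of 17.5-fold (11.5 to 27.8) and 17.3-fold (11.4 to 27.6) in the muscle culture and 3.22-fold and 2.97-fold in the fat culture. They belong to a group of 7 entries with median counts of 420, 28, 374 and 23.

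Beside AANN01294671.1/1046-1134, the largest falls in the fat culture were on a pair of short entries. ABAV01010990.1/37223-37285, of 63 bases, held 339 reads in IVSC and 158 in IVSC MDI, then 761 in SVSC and 8 in SVSC MDI, with none unique, a 19.1-fold fall (9.65 to 44.4). EU107789.1/178-242, of 65 bases, held 83, 99, 311 and 4, mostly unique, a 15.6-fold fall (6.04 to 57.7). SVSC is the highest library for both. Counts of 4 and 8 reads set the width of these intervals.

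Other structural RNA families of Rfam did not move as one with tRNA. Small subunit ribosomal RNA entries (SSU_rRNA_5), the family with the next most entries, stood at 1416, 1080, 1277 and 740 RPM, with MDI ratios of 0.763 in the muscle culture and 0.580 in the fat culture, near those of tRNA. 5S ribosomal RNA fell 3.16-fold in the muscle culture and had a ratio of 0.951 in the fat culture. The box C/D snoRNAs, which guide RNA methylation, had ratios of 1.32 and 0.505, and the box H/ACA snoRNAs, which guide pseudouridylation, had 0.735 and fell to 0.498. Y RNAs, which are small partners of the Ro protein and are also cut into fragments, rose 6.00-fold and 6.70-fold, from 41.4 to 248 RPM and from 29.2 to 195 RPM. 7SK, an inhibitor of transcription elongation, rose 9.86-fold and 23.9-fold, from 5.28 and 4.12 RPM. Lower levels after MDI were thus not common to all structural RNAs in these libraries. Pig miRNA hairpins stood at ratios of 1.10 and 0.730.

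**Figure D5:**
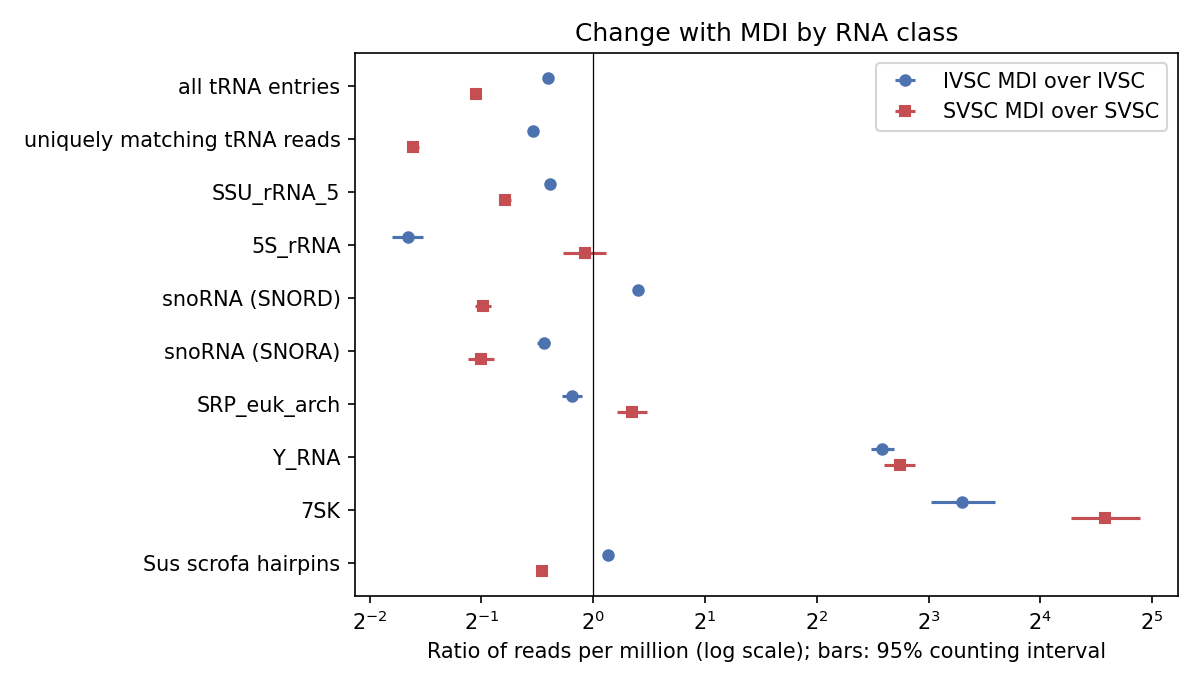
Ratio of RPM with MDI (log scale) for tRNA entries and other RNA classes in the muscle culture (circles) and the fat culture (squares); bars are exact 95% counting intervals, with 1 library per group. tRNA lies below 1 in both cultures (0.756 and 0.484), while Y RNA (6.00 and 6.70) and 7SK (9.86 and 23.9) lie above 1 in both.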

How the data were processed

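The authors' deposited files, 1 per library, give read counts per feature of 4 resources, per the file headers: Rfam, a piRNA set, hairpins of Sus scrofa and the Ensembl ncRNA set for Sscrofa9.61. The sources used here give no aligner, mismatch limit or trimming tool, and the submitters' processing notes name mm9 without a role. The deposited counts give total reads and, in another column, reads labelled as unique exact matches. How a read that matches several entries was counted is not stated, and it was taken here to count on each. Total reads were used, or the expression value where Total was blank (3 tRNA entries of the SVSC file, in which 16 have a damaged cell). An entry missing from a file was taken as 0. An unnamed line of the SVSC MDI file that sums the file was left out.

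RPM, ratios and exact Clopper-Pearson intervals were computed with Python 3.11.15, NumPy 2.4.6, pandas 2.3.3 and SciPy 1.17.1. The interval was run on simulated independent counts, the model it assumes. These leave out PCR copies and reads on several entries, so the run cannot show how it holds for the real reads. With 1 library per group there is no p-value. edgeR TMM and DESeq2 size factors served for scaling alternatives alone. Named entries are the 10 of highest mean RPM and the 3 largest called rises and falls of each comparison, where there were as many. Members and lists were chosen with earlier results of these data known, and length classes, profile groups, the split by unique reads and the counts without a class's top entry after their values were seen. Gene spans are from the RefSeq pig annotation. Names of the entries carry no species, so a pig subset was not analysed here, nor were mitochondrial tRNAs of the Ensembl set.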

Additional observations from a re-analysis of the deposited data

Results flagged for a closer look

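The MDI ratios of some values lay on opposite sides of 1 in both cultures when scaled to all reads, and are given as the difference of log2 ratios (SVSC minus IVSC). With 1 library per group, none of these differences was tested. For entries of 88 to 95 bases the difference was −3.098, from ratios of 1.27 and 0.148, though without its top entry the unique reads of this class were below 1 in both cultures. For entries of 71 bases it was −0.6703, and for those of 96 bases or more −0.9944, with no ratio past 2-fold. Per hairpin read, entries of 71 bases were above 1 in both cultures (1.11 and 1.05). AANN01294671.1/1046-1134 differed by −4.457. ABRR01258864.1/6375-6449, of 75 bases, has the counts of the long entries (64, 104, 405 and 11 reads) and differed by −3.645, from ratios of 1.69 and 0.135. CAAK05027100.1/1660-1728 went the other way by 0.4302, from 0.903 to 1.22, and with TMM scaling it was above 1 in both (1.02 and 1.15). The other 4 differences kept opposite sides under hairpin, TMM and DESeq2 scaling.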

How the results depend on the processing

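Ratios are in the order IVSC MDI over IVSC, SVSC MDI over SVSC, SVSC over IVSC and SVSC MDI over IVSC MDI, then the difference of the MDI log2 ratios (SVSC minus IVSC). The family sum gave 0.689, 0.663, 1.08, 1.04 and −0.0557 per hairpin read, 0.856, 0.456, 1.14, 0.607 and −0.91 with TMM scaling, and 0.747, 0.533, 1.09, 0.781 and −0.49 with DESeq2 size factors. Relative to scaling by all reads, log2 ratios shift by −0.13, 0.45, −0.10 and 0.49 per hairpin read and by 0.18, −0.08, −0.02 and −0.29 with TMM. The most abundant entry alone gave 1.28, 0.0584, 5.30, 0.241 and −4.46, and the family without it 0.504 for SVSC MDI over SVSC, 1.12 for SVSC over IVSC and −0.58. Scaled to the column of expression values, whose file totals are smaller, the family gave 0.819, 1.10 and 0.662 (all but SVSC MDI over SVSC, which kept to 0.491) and −0.74. Counting entries of equal counts once moved only SVSC over IVSC, to 1.17. Alternatives chosen after seeing the data gave 0.722, 0.574, 0.973, 0.773 and −0.33 without entries of 88 to 95 bases, 0.688, 0.328, 1.38, 0.660 and −1.07 with unique reads, and 0.732, 0.513, 1.08, 0.758 and −0.51 with entries of like profile counted once. Scaling to reads outside tRNA, the mature column and skipping damaged lines moved no ratio beyond its interval. The fall of the family in the fat culture thus missed 2-fold per hairpin read, with DESeq2 size factors, without the most abundant entry, without the long entries and with like profiles counted once.

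Called entries numbered 104, 157, 108 and 38. With no minimum they were 566, 509, 410 and 266, and with a minimum of 100 RPM 2, 5, 4 and 0 (none was compared in the last). For SVSC MDI over IVSC MDI they were 79 with TMM, 76 with expression values and 82 at 1.5-fold. For SVSC over IVSC, expression values gave 89 higher and 42 lower. In named entries and the length classes flagged above, 63 ratios were past 2-fold with an interval excluding 1. The 10 RPM minimum was not applied here, so they include ratios that were not compared for calls above. Rerun under 3 scalings, they gave 189 values, of which 178 stayed past 2-fold, 11 did not, and none changed direction. The 11 came from 9 of the 63 ratios. Pig entries alone and eukaryotic entries alone were not run, because the names give no species. No paired analysis was possible because each group is 1 library and no result comes from a test. The 20477 tRNA reads of SVSC MDI set the precision of its comparisons.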

Other observations

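Unique and total reads of a few entries disagreed between libraries. These entries were chosen after their values were seen. BX842593.8/21684-21754, of 71 bases, held 828 reads in IVSC and 276 in IVSC MDI, then 1520 in SVSC and 36 in SVSC MDI, but 776, 0, 1483 and 1 unique reads. Its unique reads were thus high in both undifferentiated cultures and at or near 0 after MDI. Whether its remaining reads there match other entries or match with a mismatch was not determined. AANN01229221.1/403-469, of 67 bases, showed the reverse: 37, 209, 37 and 10 reads, with 0, 155, 0 and 5 unique. It rose 5.88-fold with MDI in the muscle culture and was 5.21-fold lower in SVSC MDI than in IVSC MDI. AAHX01017408.1/36963-37034, of 72 bases, held 220, 58, 207 and 14 reads, with 151, 4, 116 and 1 unique.

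CU928265.1/39540-39609, of 70 bases, held 135 reads in IVSC, all unique, and 0 in the other 3 libraries. With AASC02055495.1/23666-23733 it is 1 of only 2 tRNA entries with 100 reads or more in 1 library and 0 in the others. Both were read in undifferentiated muscle cells.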
